A study of Mus musculus with 24 samples.

Results

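The Wnt ligands Wnt2, Wnt4, Wnt5a, Wnt5b, Wnt6, Wnt7a, Wnt7b, Wnt9b, Wnt10a and Wnt11 were followed across freshly sorted ductal and stromal cells of the mouse liver and across liver organoids grown beside mesenchymal cells. These 10 genes were found by symbol among 49568 genes in each of the 2 expression tables, which hold 19 Wnt ligand genes in all. In the homeostasis experiment, RNA was sequenced from 4 fractions of the liver of 3 mice (mice A, E and F, 12 weeks old, C57BL/6 background), all heterozygous for the B6.129S4-Pdgfratm11(EGFP)Sor/J allele, in which the Pdgfra locus drives nuclear GFP. The fractions were EpCAM+ ductal cells (DC sorted), PDGFRa+SCA1+ cells, PDGFRa+SCA1- cells and PDGFRa-SCA1+ cells, all gated to lack CD45, CD11b and CD31. In the transwell experiment, wild-type C57BL/6 mice of 8 to 12 weeks gave 6 groups of 2 samples. DC day 0 and Msc day 0 were EpCAM+ and SCA1+ cells taken straight from the sort. EM organoids were DCs grown for 15 days in a growth-factor-rich expansion medium, co-cultured organoids were DCs kept for 15 days above Msc in a transwell, and Msc alone and Msc co-cultured were the mesenchymal wells without and with DCs above them. The Msc were first expanded in mesenchymal medium before DCs were added, so the change from Msc day 0 to cultured Msc covers that expansion as well as the 15 days. The Msc of the transwell were gated on SCA1 and not on PDGFRa, and the mesenchymal medium used for co-culture contained WNT3A-conditioned medium. The expansion medium contained R-spondin and other growth factors. By the general culture methods of the study, freshly isolated DCs also received WNT3A-conditioned medium in it for the first days. The methods do not say whether this held for the sequenced EM organoids. EM and co-cultured organoids thus differ in medium as well as in the presence of Msc, and these cannot be told apart.

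Wnt proteins are secreted, lipid-bearing signals. The acyltransferase Porcn attaches a palmitoleate to a conserved serine, the carrier Wls brings the protein to the cell surface, and Frizzled receptors bind it, with Lrp5 and Lrp6 as co-receptors of the beta-catenin branch and Ror and Ryk proteins in beta-catenin-independent signalling. In the liver, Wnt2 and Wnt9b are known from endothelial cells as signals that keep the pericentral hepatocyte programme, Wnt7a and Wnt7b are known from epithelia, and Wnt5a, Wnt5b and Wnt11 are best known for beta-catenin-independent signalling.

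The lipid-bearing serine is a feature that all 10 ligands share, and the 24 coding bases around its codon are shown because they place ligands found mainly in different fractions side by side. They were read from the GENCODE M21 transcripts (GRCm38) at the in-frame run of codons for the Cys-His-Gly-any-Ser-Gly-Ser-Cys pattern, in the direction of the transcript, with the serine codon in capitals.
Wnt2 (exon 4, chr6:18008792-18008815, minus strand): tgtcatggtgtgAGTggctcctgt
Wnt9b (exon 4, chr11:103731167-103731190, minus strand): tgccatggtgtgTCAggctcctgt
Wnt7a (exon 4, chr6:91366272-91366295, minus strand): tgccatggtgtgTCAggctcctgt
Wnt7b (exon 4, chr15:85537812-85537835, minus strand): tgtcacggtgtgTCAggctcctgt
Wnt4 (exon 5, chr4:137296345-137296368, plus strand): tgtcacggggtgTCGggctcctgc
Wnt5a (exon 5, chr14:28522515-28522538, plus strand): tgtcatggagtgTCTggctcctgt
The Wnt7a and Wnt9b stretches were the same in all 24 bases, and Wnt7b shared 22 of them. Wnt2 was the only 1 of the 10 with AGT as the serine codon. The other 9 used a codon of the TCN type: TCA in 4, TCG in 2, TCT in 2 and TCC in 1. Wnt6 and Wnt10a are neighbours on chromosome 1, with 6193 bases between the end of Wnt6 and the start of Wnt10a.

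In the resting liver, the leading Wnt ligand differed between ductal, PDGFRa+SCA1+ and PDGFRa-SCA1+ cells. The ductal cells held mostly Wnt7b, the PDGFRa+SCA1+ cells mostly Wnt5a and Wnt4, and the PDGFRa-SCA1+ cells held Wnt2 and Wnt9b at levels that made their summed Wnt level the highest of the 4 fractions. The deposited homeostasis values are per-length levels named TPM and are called units here. TPM proper are transcript levels scaled to a fixed total per sample. As described under the processing, a deposited value is estimated at 0.722 to 1.386 times the true TPM, differing by gene and sample. Sums and shares of the deposited values carry that error. Summed over the 19 Wnt ligand genes, the level was 76.6 ± 0.765 units (SD, n = 3) in DC sorted, 83.4 ± 13.7 in PDGFRa+SCA1+, 132 ± 53.3 in PDGFRa+SCA1- and 975 ± 422 in PDGFRa-SCA1+. Wnt7b made up 51.1% to 66.3% of that sum in DC sorted, Wnt5a 38.0% to 52.6% in PDGFRa+SCA1+, and Wnt2 81.9% to 88.8% in PDGFRa-SCA1+ with Wnt9b at 10.3% to 17.6%. The PDGFRa+SCA1- fraction had no common leader: Wnt5b led in mouse A with 41.6%, and Wnt5a led in mice E and F with 67.7% and 30.8%. In these bulk samples, more cells of a type and more RNA per cell cannot be told apart.

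**Figure D1:**
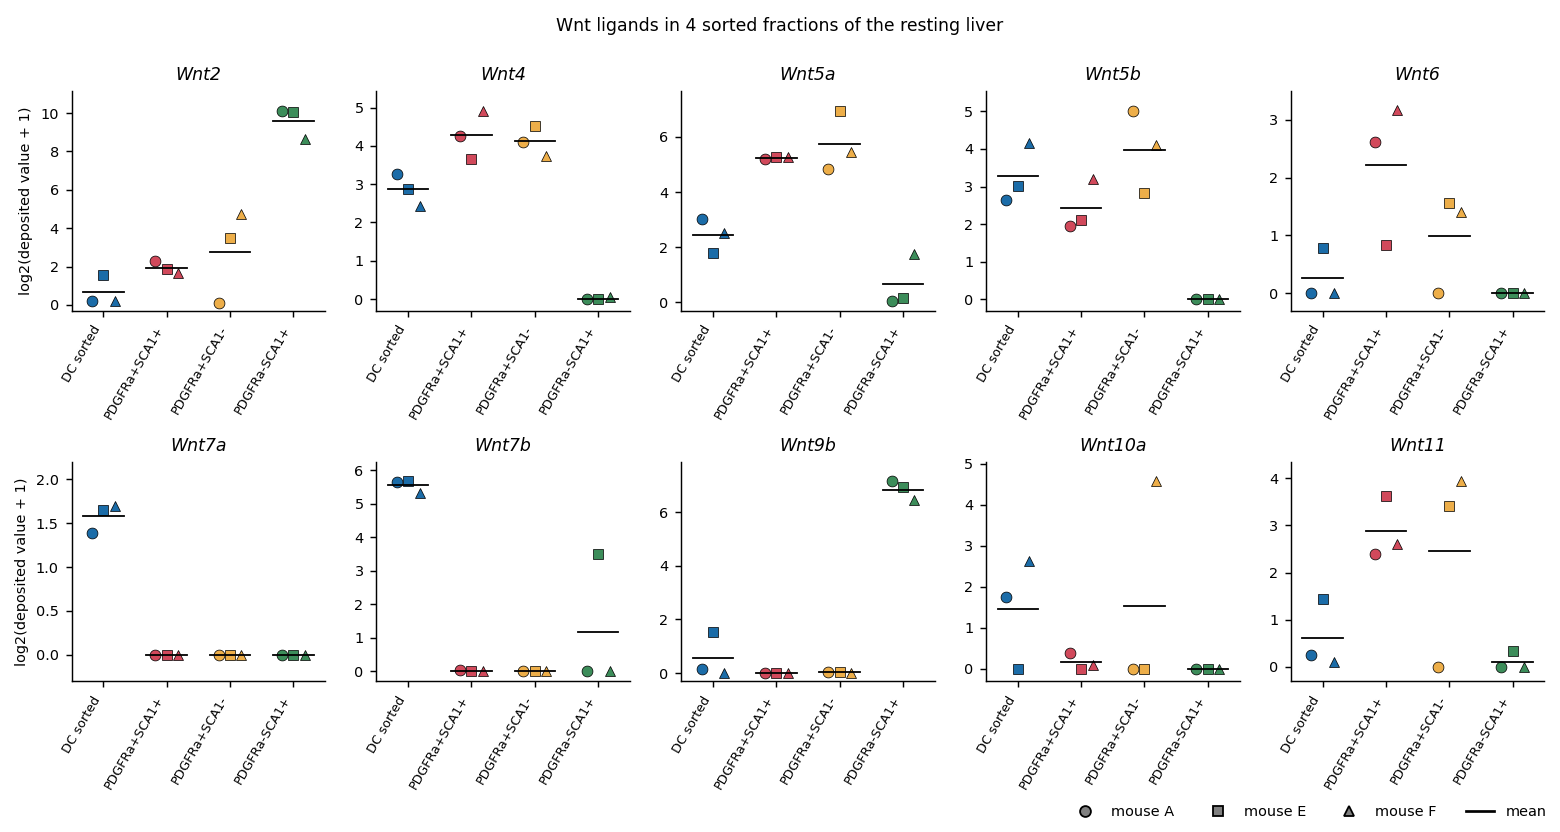
Level of each Wnt ligand as log2(deposited value + 1), by sorted fraction, with a point for each mouse (circle A, square E, triangle F) and a bar at the mean of 3 mice. Wnt2 and Wnt9b are high in PDGFRa-SCA1+ in all 3 mice, Wnt7a and Wnt7b in DC sorted, and Wnt4 and Wnt5a in both PDGFRa+ fractions.

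**Figure D2:**
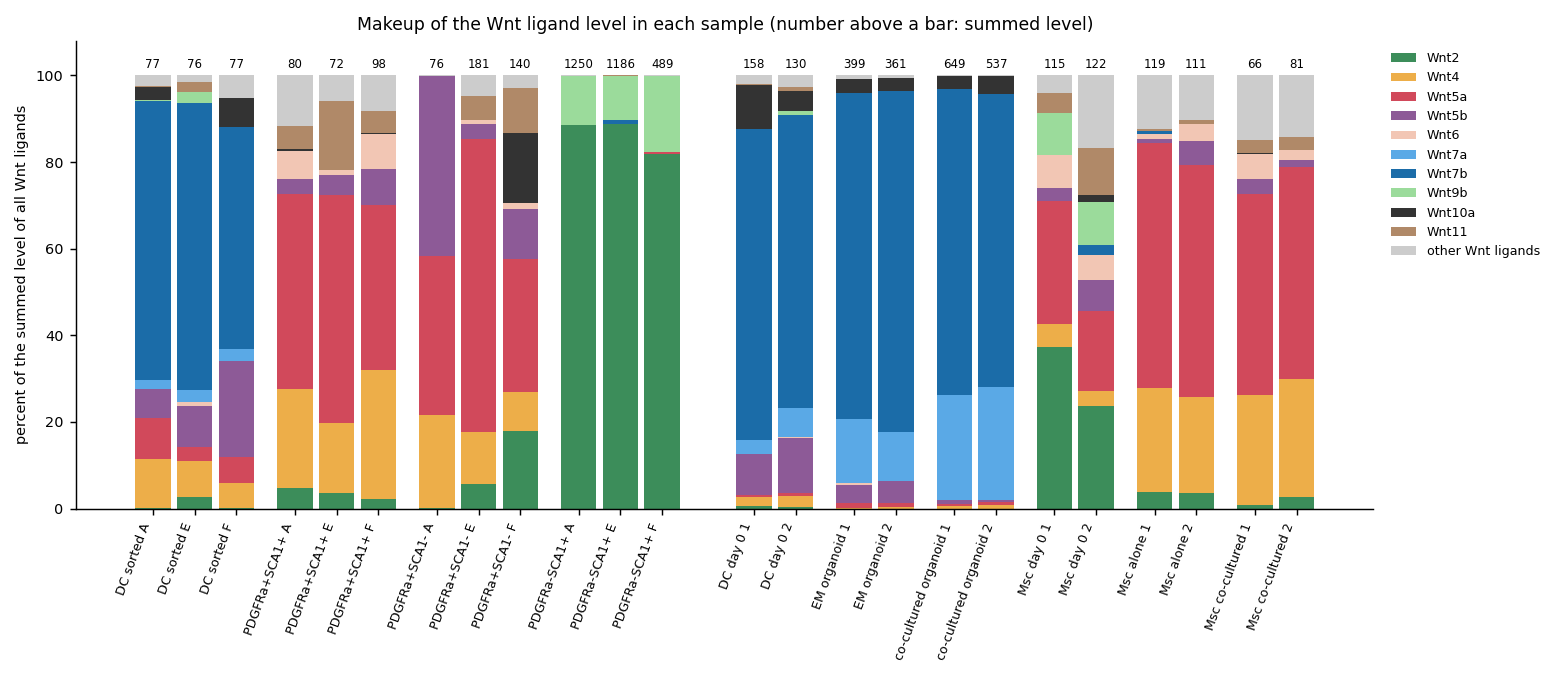
Share of each ligand in the summed per-length level of 19 Wnt ligands, with a bar for each of the 24 samples and the summed level printed above it (deposited units for the sorted fractions on the left, TPM for the transwell groups on the right). Wnt7b fills most of every ductal and organoid bar, Wnt2 most of every PDGFRa-SCA1+ bar, and Wnt5a is the largest part in PDGFRa+SCA1+, Msc alone and Msc co-cultured.

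Libraries held 19.6 to 25.6 M assigned reads in the homeostasis experiment and 19.3 to 28.1 M in the transwell, as recovered from the steps of the low values, and all 10 ligands passed the filter on low values in both experiments. In the homeostasis experiment, Wnt7a and Wnt7b would not have passed it without DC sorted, nor Wnt9b without PDGFRa-SCA1+. In the transwell, Wnt9b would not have passed without Msc day 0. P-values of these ligands against those groups are not independent of the filter. Pdgfra was at 52.9 to 103 units in the PDGFRa+ fractions and under 0.1 in the other fractions, and ductal markers summed to 56244 to 75892 units in DC sorted. PDGFRa-SCA1+ held all 6 endothelial markers examined at 1 unit or more, among them Pecam1, which encodes the CD31 used for the negative gate, at 726, 732 and 929 units. Differences are given between means of log2(value + 1), tested with limma over 17028 genes (homeostasis) or 18136 genes (transwell) and called at a Benjamini-Hochberg adjusted p under 0.05. A level of 0 reads still allows up to 3 reads, so a fold against a group at 0 is given as a bound from 3 reads in a library. These bounds cover counting error only.

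Wnt2 stood at 1106, 1053 and 400 units in PDGFRa-SCA1+ of mice A, E and F. It was at 0.165, 1.96 and 0.134 units in DC sorted, at 3.82, 2.64 and 2.12 in PDGFRa+SCA1+, and at 0.0756, 10.1 and 25.3 in PDGFRa+SCA1-. The PDGFRa-SCA1+ samples did not overlap any other fraction, whereas the 3 other fractions could not be put in an order, since PDGFRa+SCA1- spanned from a level of 1 read in mouse A to the highest value of the 3. Wnt2 was higher in PDGFRa-SCA1+ than in DC sorted by 8.94 ± 0.95 on the log2 scale (difference ± SE, adjusted p = 2.57e-05), and than in PDGFRa+SCA1+ by 7.68 ± 0.95 (adjusted p = 0.000125), in 3 of 3 mice each time.

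Wnt9b, a ligand of the same endothelial setting, was at 141, 122 and 85.8 units in PDGFRa-SCA1+ and at 0.102, 1.90 and 0 units in DC sorted. It was listed at 0 in every PDGFRa+SCA1+ sample and at 0.0306, 0.0298 and 0 units, or at most 1 read, in PDGFRa+SCA1-. Wnt9b was thus at least 1143-fold higher in PDGFRa-SCA1+ than in PDGFRa+SCA1+, and its log2 difference from DC sorted was 6.28 ± 0.53 (adjusted p = 4.69e-06). Of the 10 ligands, 6 differed between PDGFRa-SCA1+ and DC sorted, where 22.8% of all genes tested were called. Wnt2 and Wnt9b were higher (11.5% of all genes), and Wnt4, Wnt5b, Wnt7a and Wnt7b were lower (11.3%). For 7 of the 10 the groups did not overlap, as for 41.7% of all genes.

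Between fractions, levels of endothelial genes were high where these 2 ligands were high. The 6 endothelial markers summed to 2543 to 2739 units in PDGFRa-SCA1+ and to 2.59 to 20.8 units in the other fractions, and the 4 sinusoidal endothelial markers summed to 1948 to 3203 units against 5.26 to 41.1. In DC sorted of mouse E, where Wnt2 and Wnt9b were above the other ductal samples, they stood at 0.187% and 1.56% of the PDGFRa-SCA1+ sample of that mouse, while the endothelial and sinusoidal markers stood at 0% to 0.946% of it. Within a fraction the pattern was mixed. In PDGFRa+SCA1-, Wnt2 ran from 0.0756 to 25.3 units. There the endothelial sum was 15.9, 15.0 and 14.9 units in mice A, E and F, and the sinusoidal sum 8.19, 18.6 and 28.4. In DC sorted of mice A, E and F, the endothelial sum was 3.14, 6.80 and 5.45 units and the sinusoidal sum 12.5, 5.26 and 18.4. The part of endothelial RNA in these values was not tested.

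**Figure D3:**
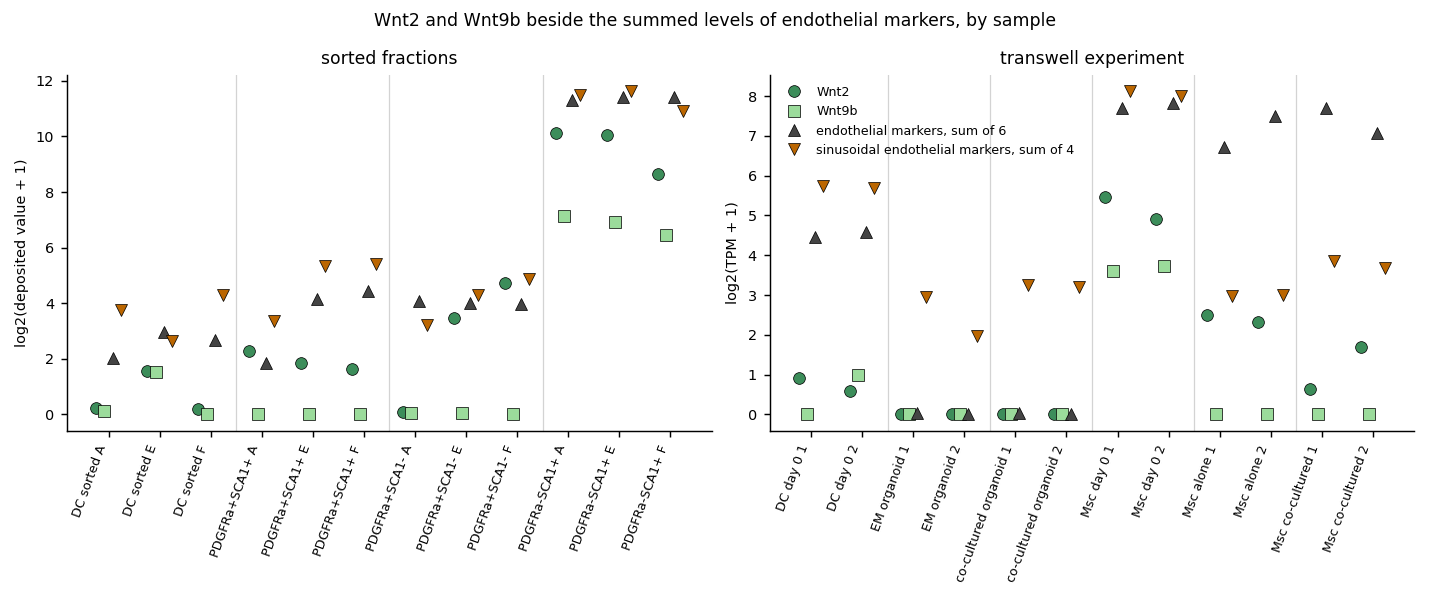
Wnt2 and Wnt9b beside the summed endothelial (6 genes) and sinusoidal endothelial (4 genes) marker levels, as log2(value + 1) for each sample, sorted fractions on the left and transwell groups on the right. All 4 measures are high in PDGFRa-SCA1+; in the cultured Msc, Wnt9b is at 0 and the sinusoidal sum is low while the endothelial sum stays between 104 and 208 TPM.

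The upstream sequence of Wnt9b is shown beside that of Wnt7a because the levels of these genes were above 1 unit in every sample of a different single fraction, PDGFRa-SCA1+ for Wnt9b and DC sorted for Wnt7a. RefSeq upstream windows (GRCm38.p6, 250 bases before the start) were matched for 7 of the 10 ligands. These 7 gave 10 windows, with more than 1 for Wnt5b and for Wnt11, while Wnt5a, Wnt7b and Wnt10a had none. Counts below are of windows and not of ligands. Capitals mark the Sp1 letters GGGCGG and the E-box letters CAGGTG on either strand.
Wnt9b (chr11:103749822-103750071, minus strand): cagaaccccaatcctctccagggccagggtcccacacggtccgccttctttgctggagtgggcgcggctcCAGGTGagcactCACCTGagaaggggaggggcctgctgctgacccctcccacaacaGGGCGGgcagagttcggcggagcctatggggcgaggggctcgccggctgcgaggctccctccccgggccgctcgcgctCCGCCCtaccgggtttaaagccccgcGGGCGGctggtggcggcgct
Wnt7a (chr6:91411354-91411603, minus strand): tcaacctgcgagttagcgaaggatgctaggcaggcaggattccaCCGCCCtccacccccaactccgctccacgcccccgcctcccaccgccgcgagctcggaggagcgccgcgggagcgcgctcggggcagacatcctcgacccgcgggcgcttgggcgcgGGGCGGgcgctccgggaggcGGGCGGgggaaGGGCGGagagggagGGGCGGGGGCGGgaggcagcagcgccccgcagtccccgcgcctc
Both windows held the Sp1 letters, which were in 8 of the 10 windows of the ligands and in 32.7% of 32851 windows of this length, and the Wnt9b window held the E-box letters, which were in 4 of the 10 and in 17.2% of all. The GATA letters AGATAA, present in 9.99% of all windows, were in none of the 10 windows of the ligands. The TCF/LEF letters CTTTGA were in 2 of the 10 (13.8% of all windows), and the TATA letters TATAAA in 1 (12.4%). A match of letters is a description and not a binding site.

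Wnt7b was the leading ductal ligand. Its level was 49.5, 50.2 and 39.4 units in DC sorted of mice A, E and F, 0.0313, 0 and 0 units in PDGFRa+SCA1+, 0 in all 3 PDGFRa+SCA1- samples, and 0, 10.4 and 0 units in PDGFRa-SCA1+. The ductal samples did not overlap those of any other fraction. Its log2 difference from DC sorted was -5.54 ± 0.80 in PDGFRa+SCA1+ (adjusted p = 0.000276) and -4.39 ± 0.80 in PDGFRa-SCA1+ (adjusted p = 0.00158), and the level in PDGFRa+SCA1- was at least 495-fold lower than in DC sorted. The PDGFRa-SCA1+ sample of mouse E stood apart, with Wnt7b at 20.8% of the ductal level of that mouse. Ductal markers in that sample ranged from 0.0915% of the ductal level for Sox9 to 5.65% for Spp1, and Wnt7a was at 0. Wnt7b shares 324 exon bases with the antisense gene AU022754, and reads of the pair cannot be told apart without strand.

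Wnt7a, the closest relative of Wnt7b, was low but present in each ductal sample, at 1.61, 2.14 and 2.23 units, and was listed at 0 in the 9 samples of the other fractions. It was therefore at least 11.3-fold lower in each of them than in DC sorted, with a log2 difference of -1.58 ± 0.30 for each (adjusted p of 0.00203, 0.00185 and 0.00204 for PDGFRa+SCA1+, PDGFRa+SCA1- and PDGFRa-SCA1+). Wnt7a passed the filter on low values only through the ductal samples, so these p-values are not independent of that filter.

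Wnt10a, a ligand of the beta-catenin branch, was uneven. It was at 2.35, 0 and 5.21 units in DC sorted, at 0.302, 0 and 0.0613 in PDGFRa+SCA1+, at 0, 0 and 22.9 in PDGFRa+SCA1-, and at 0 in PDGFRa-SCA1+. Mouse F held the highest value of DC sorted and of PDGFRa+SCA1-, every fraction held a sample at 0, and no comparison of fractions passed the threshold for Wnt10a (adjusted p from 0.376 for PDGFRa-SCA1+ against DC sorted upward).

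Wnt5b was shared by ductal and PDGFRa+ cells. It stood at 5.26, 7.09 and 17.0 units in DC sorted, at 2.88, 3.34 and 8.26 in PDGFRa+SCA1+, at 31.5, 6.05 and 16.3 in PDGFRa+SCA1-, and at 0 in every PDGFRa-SCA1+ sample. The first 3 fractions overlapped, and PDGFRa-SCA1+ was at least 56.6-fold below DC sorted, with a log2 difference of -3.28 ± 0.67 (adjusted p = 0.00337).

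Wnt5a and Wnt4 were the leading ligands of PDGFRa+SCA1+ cells. Wnt5a was at 36.1, 37.6 and 37.4 units in PDGFRa+SCA1+ and at 27.8, 123 and 43.2 units in PDGFRa+SCA1-. Its level was 7.19, 2.45 and 4.67 units in DC sorted and 0.0436, 0.116 and 2.41 units in PDGFRa-SCA1+. Both PDGFRa+ fractions lay above DC sorted in 3 of 3 mice without overlap, by 2.81 ± 0.64 on the log2 scale in PDGFRa+SCA1+ (adjusted p = 0.00651) and by 3.31 ± 0.64 in PDGFRa+SCA1- (adjusted p = 0.00202). PDGFRa-SCA1+ lay below DC sorted in 3 of 3 mice, by a log2 difference of -1.78 ± 0.64 that missed the threshold (adjusted p = 0.0661). Without 1 of 3 libraries it passed: PDGFRa+SCA1- of mouse A or of mouse E, or PDGFRa-SCA1+ of mouse F, with adjusted p from 0.0209 to 0.0433, as it did with a pseudocount of 0.1 (adjusted p = 0.032) and with the totals behind the values undone (adjusted p = 0.0439). Wnt5a shares 358 exon bases with the antisense gene Gm2670.

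Wnt4 was at 18.2, 11.6 and 29.3 units in PDGFRa+SCA1+, 16.3, 21.9 and 12.4 in PDGFRa+SCA1-, 8.67, 6.36 and 4.44 in DC sorted, and 0, 0 and 0.0329 in PDGFRa-SCA1+. Every PDGFRa+ sample was above every ductal sample, yet the log2 differences of 1.41 ± 0.51 (adjusted p = 0.0631) and 1.26 ± 0.51 (adjusted p = 0.0841) missed the threshold. Both Wnt4 differences passed it with quantile normalization (adjusted p of 0.0192 and 0.0382) and with the totals behind the values undone (adjusted p of 0.0262 and 0.0336). With only the groups compared, that of PDGFRa+SCA1+ passed too (adjusted p = 0.0355). Wnt4 was lower in PDGFRa-SCA1+ than in DC sorted (-2.85 ± 0.51, adjusted p = 0.00129) and than in PDGFRa+SCA1+ (-4.26 ± 0.51, adjusted p = 8.86e-05).

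Wnt6 and Wnt11 were lower-level ligands of the PDGFRa+ cells. Wnt6 was at 5.16, 0.793 and 8.02 units in PDGFRa+SCA1+ and at 0, 1.95 and 1.66 in PDGFRa+SCA1-. In DC sorted it was at 0, 0.729 and 0 units, and in PDGFRa-SCA1+ at 0 throughout. PDGFRa+SCA1+ lay above DC sorted by 1.95 ± 0.63 on the log2 scale (adjusted p = 0.04), a call that ended with the mouse as a block (adjusted p = 0.058), with a pseudocount of 0.1, with no filter, with quantile normalization, with only these groups (adjusted p from 0.0536 to 0.0726 in these 4), and without any 1 of 8 libraries, those of DC sorted and PDGFRa-SCA1+ (mice A, E and F) and PDGFRa+SCA1+ of mice A and F (adjusted p from 0.0511 to 0.143).

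Wnt11 was at 4.29, 11.3 and 5.07 units in PDGFRa+SCA1+, at 0, 9.69 and 14.4 in PDGFRa+SCA1-, at 0.201, 1.72 and 0.0740 in DC sorted, and at 0, 0.260 and 0 in PDGFRa-SCA1+. PDGFRa+SCA1+ did not overlap DC sorted, with a log2 difference of 2.27 ± 0.89 and an adjusted p of 0.0879. With only these groups that difference passed (adjusted p = 0.0164). The PDGFRa+SCA1- sample of mouse A was the low one: it was at 0 for Wnt11 and Wnt6 and at 1 read for Wnt2, and it held the highest Wnt5b of all samples. Without it, Wnt11 passed in PDGFRa+SCA1+ against DC sorted (2.27, adjusted p = 0.00892), and both Wnt2 (3.44, adjusted p = 0.00159) and Wnt11 (3.08, adjusted p = 0.00309) passed in PDGFRa+SCA1- against DC sorted. With quantile normalization of all samples, Wnt2 passed there too (2.82, adjusted p = 0.0131). Wnt11 shares 364 exon bases with the antisense gene Gm8398.

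Set against DC sorted, 4 of the 10 ligands differed in PDGFRa+SCA1+, where 23.8% of all genes tested were called. Wnt5a and Wnt6 were higher (9.85% of all genes) and Wnt7a and Wnt7b lower (14.0%), and for 7 of the 10 the groups did not overlap, as for 50.8% of all genes. In PDGFRa+SCA1-, 3 of 10 differed, Wnt5a higher and Wnt7a and Wnt7b lower, with a background of 28.8% (9.98% higher and 18.9% lower). There 4 of the 10 did not overlap, and 41.2% of all genes. Higher calls were 34.6% of all calls in that comparison and 46.1% with quantile normalization. The median log2 difference of the 10 ligands was 0.35 and 0.72 in these comparisons, beside -0.28 and -0.47 over all genes. All comparisons with DC sorted share its 3 samples.

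Between the 2 mesenchymal fractions none of the 10 ligands differed by limma, and 1, Wnt5b, had an unadjusted p under 0.05 in that fit (-1.55 ± 0.67, adjusted p = 0.397, lower in PDGFRa+SCA1+ in 3 of 3 mice). The background was 0.587%, or 100 genes (0.435% higher and 0.153% lower in PDGFRa+SCA1+), and 20 genes with the mouse as a block. Higher genes were 74.0% of these calls, and 57.4% with quantile normalization. For 0 of the 10 ligands did the groups not overlap, against 14.5% of all genes. The 95% interval of the Wnt5a difference ran from -1.90 to 0.89 on the log2 scale and the Wnt2 difference was -0.84 ± 0.95, so that changes of this size were not detectable with 3 mice.

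Between the 2 SCA1+ fractions, 7 of 10 ligands differed, with a background of 18.8%, and the groups of the same 7 did not overlap, as for 38.0% of all genes. Wnt2 and Wnt9b were higher in PDGFRa-SCA1+ (10.9% of all genes), and Wnt4, Wnt5a (-4.59 ± 0.64, adjusted p = 0.000294), Wnt5b, Wnt6 and Wnt11 were lower (7.86%). In 58.1% of all calls the gene was higher in PDGFRa-SCA1+, and in 45.7% with quantile normalization. The 3 smallest calls ended without single libraries: Wnt5b (-2.43, adjusted p = 0.0243) without any 1 of 5, Wnt6 (-2.21, adjusted p = 0.027) without any 1 of 5, and Wnt11 (-2.76, adjusted p = 0.049) without any 1 of 9. In each case these included all 3 PDGFRa-SCA1+ libraries and PDGFRa+SCA1+ of mouse F, with PDGFRa+SCA1+ of mouse E for Wnt5b, of mouse A for Wnt6, and the remaining PDGFRa+SCA1+ and DC sorted libraries for Wnt11. Adjusted p values then lay between 0.0515 and 0.0996 for Wnt5b, 0.0644 and 0.103 for Wnt6, and 0.0622 and 0.157 for Wnt11. The Wnt6 call ended also with no filter, quantile normalization or only these groups (adjusted p from 0.0517 to 0.0611), and the Wnt11 call with a pseudocount of 0.1, no filter or quantile normalization (adjusted p from 0.0557 to 0.107).

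For the 8 ligands at 1 unit or more in every sample of a fraction, the genes with the most similar pattern over the 12 sorted samples were picked by Pearson's r of log2(value + 1), as a description across samples that share 4 fractions. Nearest to Wnt2 were Sh3bp5 (r = 0.981), Fam167b (0.980) and She (0.978), and nearest to Wnt9b were C5ar2 (0.997), Adh6b (0.994) and Klk8 (0.994). Kcnk1, Plek2 and Foxa2 were nearest to Wnt7b, and Clic6, Igsf11 and Il1f6 to Wnt7a, all with r of at least 0.999. Wnt4 was nearest to Plekha6 (0.979), Pex5 (0.975) and Sobp (0.972), and Wnt5a to Chpf (0.982), Eno2 (0.974) and Sod3 (0.973). Wnt11 was nearest to Foxl1 (0.978), Alms1-ps1 (0.954) and Tmem100 (0.954), and Foxl1, a forkhead factor, was at a mean of 3.99 and 6.05 units in the PDGFRa+ fractions against 0.0957 in DC sorted and 0.0197 in PDGFRa-SCA1+. Wnt5b had looser neighbours, Wdr35 (0.943), Nhej1 (0.934) and Dync2h1 (0.931).

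In culture, Wnt5a, Wnt7a and Wnt7b rose in organoids of both kinds, Wnt4 fell in EM organoids and Wnt5b in co-cultured organoids. In Msc the endothelial-fraction ligands Wnt2 and Wnt9b fell while Wnt4 rose. The transwell values are TPM, scaled from the deposited RPKM, with 2 samples a group. Summed over the 19 ligands, the level was 144 ± 19.3 TPM (SD, n = 2) in DC day 0, 380 ± 27.2 in EM organoids and 593 ± 79.6 in co-cultured organoids. In the mesenchymal wells it was 118 ± 4.71 TPM in Msc day 0, 115 ± 5.97 in Msc alone, and 65.7 and 81.2 TPM in the 2 samples of Msc co-cultured. Wnt7b held 67.6% to 78.6% of the sum in DC day 0 and in both kinds of organoid.

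**Figure D4:**
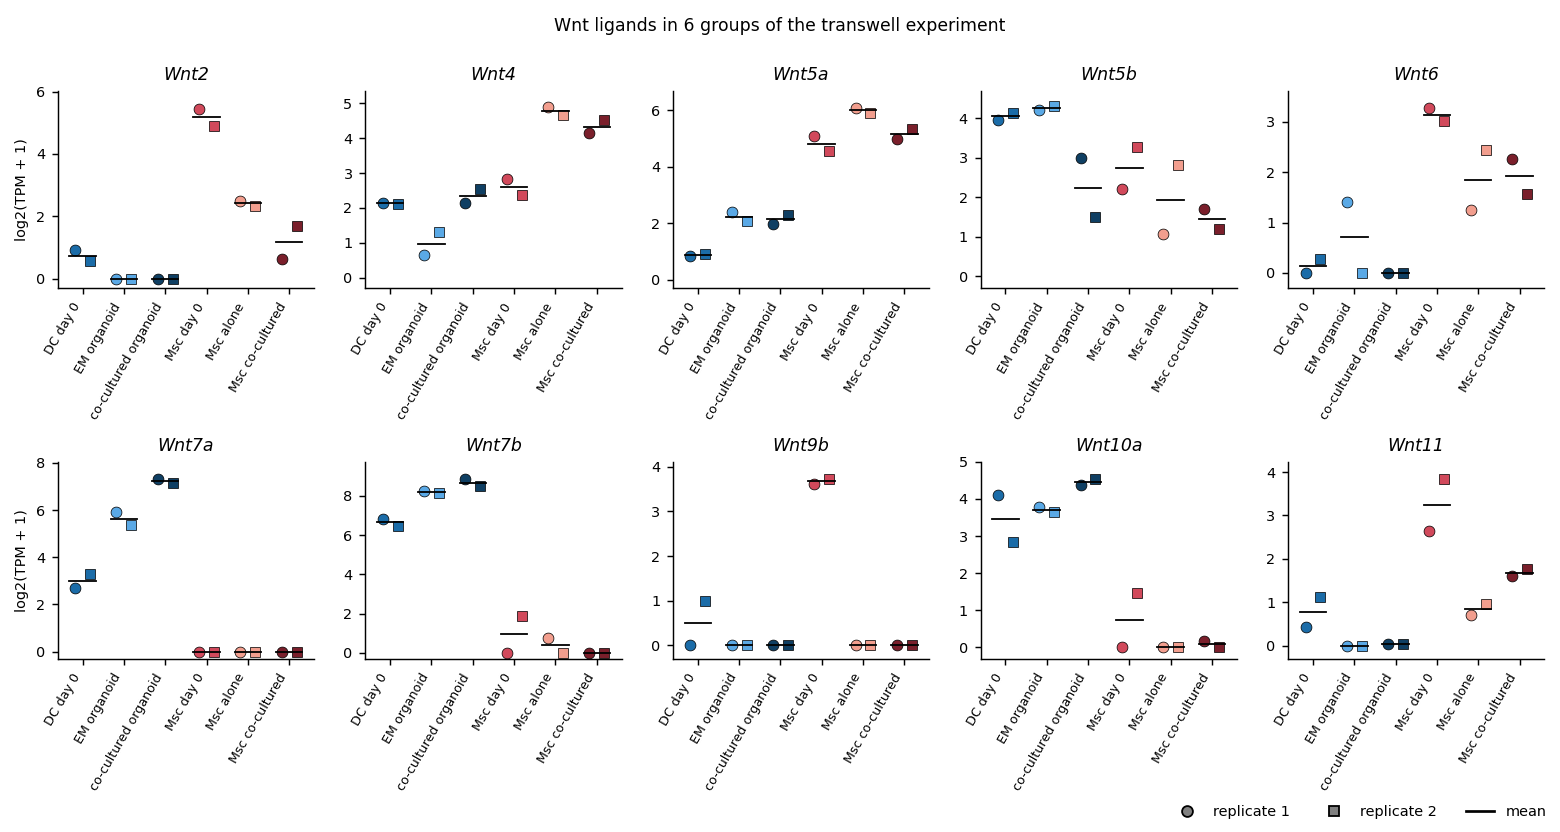
Level of each Wnt ligand as log2(TPM + 1) in the 6 transwell groups, with a point for each of 2 replicates (circle 1, square 2) and a bar at their mean. Wnt7a rises from DC day 0 to EM organoids to co-cultured organoids, and Wnt9b is above 11 TPM in both Msc day 0 samples and at 0 in all cultured samples.

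Wnt7a was at 5.38 and 8.87 TPM in DC day 0, 58.6 and 40.4 TPM in EM organoids, and 157 and 140 TPM in co-cultured organoids. The groups did not overlap, and each step was larger than the spread between replicates: 2.65 ± 0.30 on the log2 scale from DC day 0 to EM organoids (adjusted p = 8.93e-05), 4.23 ± 0.30 from DC day 0 to co-cultured organoids (adjusted p = 5.25e-06), and 1.59 ± 0.30 from EM to co-cultured organoids (adjusted p = 0.00753). The ratio of mean TPM to DC day 0 was 6.95 and 20.8. The call between the kinds of organoid ended without EM organoid replicate 2 (1.32, adjusted p = 0.074) or co-cultured organoid replicate 1 (1.51, adjusted p = 0.0655), and with a pseudocount of 0.1 (adjusted p = 0.0621) or only these groups (adjusted p = 0.075).

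Wnt7b was the most abundant Wnt ligand of the ductal side at all times, at 113 and 88.1 TPM in DC day 0, 301 and 284 TPM in EM organoids, and 458 and 363 TPM in co-cultured organoids. It was higher by 1.54 ± 0.50 on the log2 scale in EM organoids (adjusted p = 0.0323) and by 2.02 ± 0.50 in co-cultured organoids (adjusted p = 0.00965) than in DC day 0. The EM call ended without any 1 of the 6 DC-derived libraries (adjusted p from 0.0559 to 0.166), and the co-culture call ended without DC day 0 replicate 2 (1.84, adjusted p = 0.0754) or co-cultured organoid replicate 1 (1.85, adjusted p = 0.0731). With a pseudocount of 0.1 both calls ended (adjusted p of 0.407 and 0.283). In EM organoids it ended as well with no filter (adjusted p = 0.0616). Between the 2 kinds of organoid the difference in Wnt7b was 0.48 ± 0.50, with an interval from -0.65 to 1.61.

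Wnt5a was low in DC day 0, at 0.802 and 0.879 TPM, and stood at 4.21 and 3.24 TPM in EM organoids and 2.93 and 3.93 TPM in co-cultured organoids. It rose in both, by 1.35 ± 0.26 (adjusted p = 0.00235) and 1.26 ± 0.26 (adjusted p = 0.00379) on the log2 scale, and the 2 kinds of organoid overlapped. Their difference was -0.09 ± 0.26, with an interval from -0.69 to 0.50.

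Wnt4 and Wnt5b parted between the organoid conditions, which differ in medium as well as in Msc. Wnt4 was at 3.41 and 3.35 TPM in DC day 0, 0.568 and 1.46 in EM organoids, and 3.44 and 4.81 in co-cultured organoids. It fell in EM organoids by 1.16 on the log2 scale (SE 0.32, adjusted p = 0.0143) and was 1.37 ± 0.32 higher in co-cultured than in EM organoids (adjusted p = 0.0201), a ratio of mean TPM of 4.07. The first call ended without either DC day 0 library or EM organoid replicate 1 (adjusted p from 0.0561 to 0.103), and the second without EM organoid replicate 1 or either co-cultured organoid library (adjusted p from 0.0553 to 0.132), and both Wnt4 calls ended with only the groups compared (adjusted p of 0.0748 and 0.15). Wnt5b was at 14.6 and 16.5 TPM in DC day 0, 17.4 and 18.7 in EM organoids, and 6.91 and 1.85 in co-cultured organoids. It was lower in co-cultured organoids than in DC day 0 (-1.80 ± 0.64, adjusted p = 0.0462), and this call ended without any 1 of 9 libraries: DC day 0, EM organoid, Msc day 0 and Msc co-cultured (replicates 1 and 2) and co-cultured organoid replicate 2 (adjusted p from 0.0529 to 0.312). It ended also with a pseudocount of 0.1, no filter or only these groups (adjusted p of 0.0827, 0.0865 and 0.123). Against EM organoids, which did not overlap them, the difference had an adjusted p of 0.0729, and it passed without either Msc alone library (adjusted p of 0.0435 and 0.0444).

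Wnt10a was at 16.1 and 6.15 TPM in DC day 0, 12.7 and 11.5 in EM organoids, and 19.7 and 22.3 in co-cultured organoids. The co-cultured samples were the highest, but no difference passed (adjusted p = 0.161 against DC day 0 and 0.436 against EM organoids), and with RPKM as deposited that against DC day 0 did (adjusted p = 0.0373). Wnt2, Wnt6, Wnt9b and Wnt11 were at most 1.66 TPM in all 6 DC-derived samples, and Wnt2 and Wnt9b were at 0 in all 4 organoid samples. With a pseudocount of 0.1, Wnt2 (adjusted p of 0.00831 and 0.00874) and Wnt11 (adjusted p of 0.0111 and 0.0216) passed as lower in EM and co-cultured organoids than in DC day 0, and Wnt2 passed with only the groups compared too (adjusted p of 0.0369 and 0.0386). Wnt9b was at 0 and 0.990 TPM in DC day 0, and without DC day 0 replicate 1 it passed as lower in EM (adjusted p = 0.0214) and co-cultured (adjusted p = 0.0226) organoids.

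Counted over the ligands, 4 of 10 differed between EM organoids and DC day 0 where 44.4% of all genes tested were called. Wnt5a, Wnt7a and Wnt7b were higher (27.1% of all genes) and Wnt4 lower (17.2%), and for 7 of the 10 the groups did not overlap, as for 70.8% of all genes. Between co-cultured organoids and DC day 0 it was also 4 of 10, Wnt5a, Wnt7a and Wnt7b higher and Wnt5b lower, with a background of 42.3% (23.2% higher, 19.1% lower), and 8 of the 10 did not overlap, as for 69.9% of all genes. Between co-cultured and EM organoids it was 2 of 10, Wnt4 and Wnt7a, both higher, with a background of 12.9% (5.73% higher, 7.21% lower; higher genes were 44.3% of the calls and 54.1% with quantile normalization), and 6 of the 10 did not overlap, as for 53.8% of all genes. The first 2 comparisons share the DC day 0 samples.

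**Figure D5:**
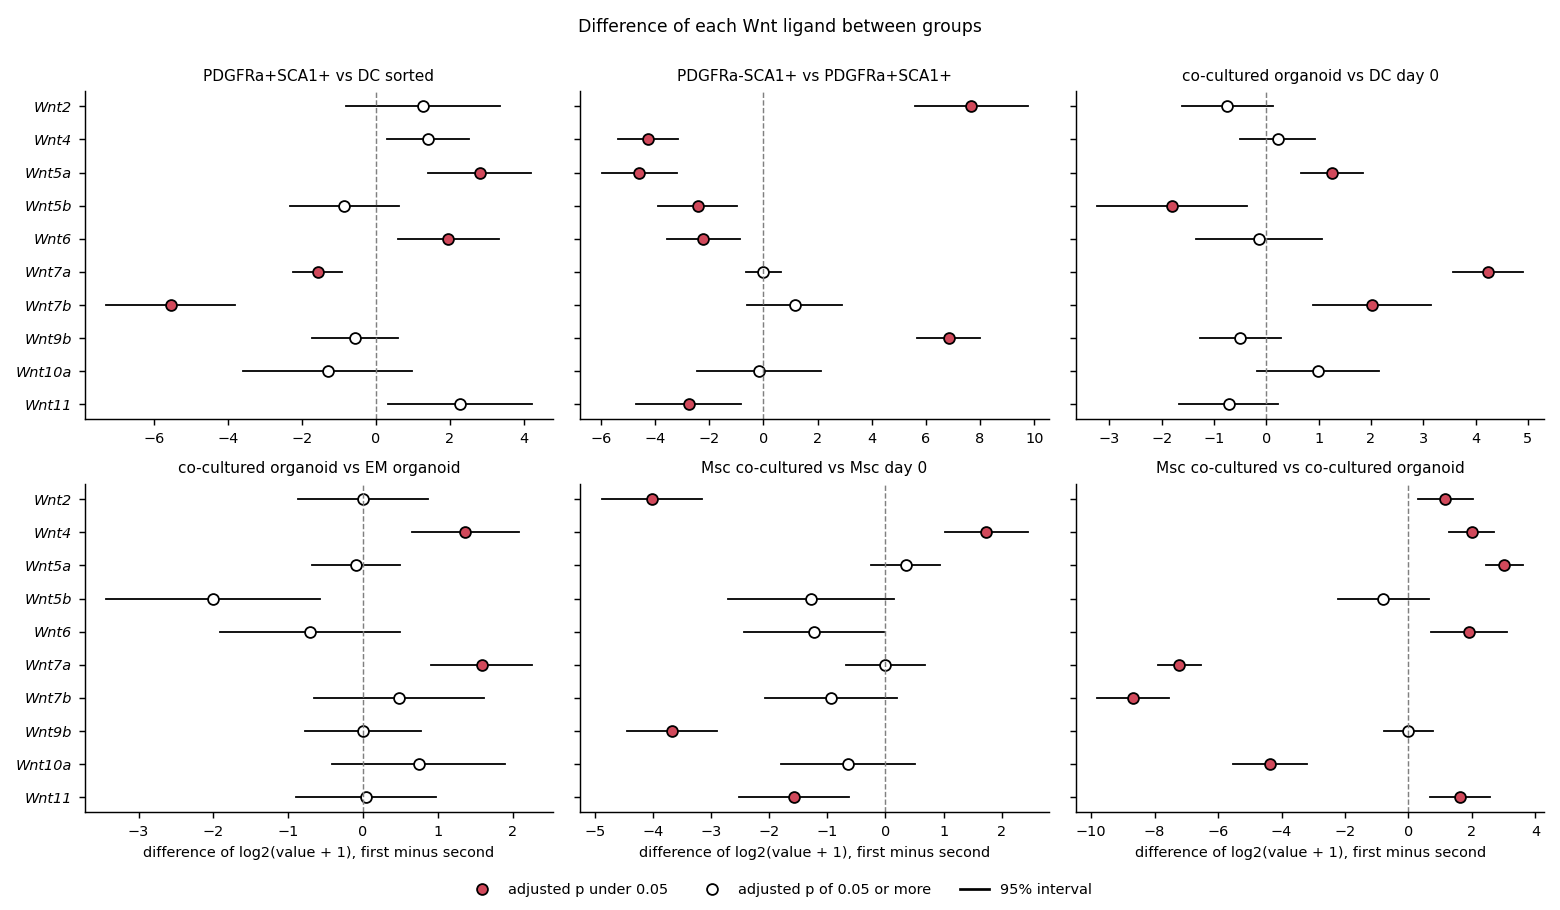
Difference of log2(value + 1), first group minus second, with its 95% interval for each ligand in 6 of the 13 comparisons; filled points have an adjusted p under 0.05. Wnt2 and Wnt9b lie far to the right between the SCA1+ fractions and to the left from Msc day 0 to co-cultured Msc, and Wnt7a and Wnt7b lie to the right in co-cultured organoids.

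In Msc, Wnt9b was at 11.3 and 12.3 TPM on day 0 and at 0 in all 4 cultured samples, at least 131-fold lower in Msc alone and at least 112-fold lower in Msc co-cultured (-3.67 ± 0.34 for each, adjusted p of 3.01e-05 and 3.09e-05). Wnt2 was at 42.8 and 28.9 TPM on day 0, 4.68 and 4.03 TPM in Msc alone, and 0.560 and 2.21 TPM in Msc co-cultured. It fell by 2.76 on the log2 scale in Msc alone (SE 0.39, adjusted p = 0.000349) and by 4.02 in Msc co-cultured (SE 0.39, adjusted p = 3.67e-05). Wnt11 was at 5.26 and 13.4 TPM on day 0, 0.630 and 0.952 in Msc alone, and 2.02 and 2.38 in Msc co-cultured. It fell by 2.41 (SE 0.42, adjusted p = 0.00126) and by 1.57 (SE 0.42, adjusted p = 0.013), and the second call ended without Msc day 0 replicate 2 (-0.97, adjusted p = 0.0526) or Msc co-cultured replicate 1 (-1.49, adjusted p = 0.0634), with a pseudocount of 0.1 (adjusted p = 0.0653) and with only these groups (adjusted p = 0.157). With only the groups compared, the Wnt11 call in Msc alone ended too (adjusted p = 0.0781).

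Marker levels of other cells also differed between Msc day 0 and cultured Msc. The 4 sinusoidal endothelial markers summed to 255 to 280 TPM on day 0, 6.86 to 6.94 in Msc alone and 11.7 to 13.4 in Msc co-cultured. The 6 endothelial markers summed to 208 to 227 TPM on day 0, 104 to 179 in Msc alone and 135 to 208 in Msc co-cultured, and 5 hepatocyte markers to 17470 to 21960, 41.5 to 54.3 and 26.0 to 384 TPM. The part of these cells in the fall of Wnt2 and Wnt9b was not tested.

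Wnt4 and Wnt5a were the ligands that rose in Msc. Wnt4 was at 6.16 and 4.18 TPM on day 0, 28.5 and 24.3 in Msc alone, and 16.7 and 22.1 in Msc co-cultured, a rise of 2.17 ± 0.32 on the log2 scale (adjusted p = 0.000452) and of 1.73 ± 0.32 (adjusted p = 0.00179). Wnt5a was at 32.6 and 22.5 TPM on day 0, 67.3 and 59.3 in Msc alone, and 30.4 and 39.7 in Msc co-cultured. It rose in Msc alone by 1.19 ± 0.26 (adjusted p = 0.00487, and 0.0564 with only these groups), whereas the samples of Msc co-cultured and Msc day 0 overlapped (0.35 ± 0.26, adjusted p = 0.322). Marker sums differed as well between Msc day 0 and the 4 cultured samples. The 6 mesenchymal markers went from 22138 to 23094 TPM to 36818 to 41242. The 5 smooth muscle markers went from 583 to 795 TPM to 3166 to 3935, and 5 portal fibroblast markers from 547 to 683 TPM to 1575 to 1684. Hepatic stellate markers (4 genes) went the other way, from 315 to 418 TPM to 217 to 269. The last 2 sums are not specific to their cell types. Co-cultured organoids held 673 to 722 TPM on the portal fibroblast list, with 1 to 2 of its 5 genes at 1 TPM or more. DC day 0 held 257 to 262 TPM on the stellate list, with 1 of its 4 genes at that level. The part of mesenchymal cell types in the rise of Wnt4 and Wnt5a was not tested.

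Of the other members, Wnt6 was at 8.67 and 7.08 TPM in Msc day 0, 1.37 and 4.40 in Msc alone, and 3.82 and 1.96 in Msc co-cultured, and its differences of -1.31 ± 0.53 and -1.23 ± 0.53 missed the threshold (adjusted p of 0.0739 and 0.0928). Wnt6 passed in Msc alone without Msc alone replicate 2 (-1.90, adjusted p = 0.0366) or either EM organoid library (adjusted p of 0.0452 and 0.0455), and with RPKM as deposited it passed in Msc alone (adjusted p = 0.0201) and in Msc co-cultured (adjusted p = 0.025). Wnt5b was at 1.08 to 8.61 TPM in all 6 Msc samples, with no difference past the threshold. Wnt7a was at 0 in all of them. Wnt7b was at 0 and 2.65 TPM in Msc day 0 and Wnt10a at 0 and 1.76, both from replicate 2, where ductal markers ranged from 2.87% to 24.4% of their level in DC day 0 replicate 2 and Wnt10a stood at 28.6% of its level there. Without Msc day 0 replicate 1, Wnt7b passed as lower in Msc alone (-1.49, adjusted p = 0.00743) and Msc co-cultured (-1.87, adjusted p = 0.00279), and Wnt10a in Msc alone (-1.46, adjusted p = 0.0416).

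Against Msc day 0, 5 of 10 ligands differed in Msc alone (Wnt4 and Wnt5a higher, Wnt2, Wnt9b and Wnt11 lower), with a background of 44.8% (27.4% higher, 17.5% lower). In Msc co-cultured 4 of 10 differed (Wnt4 higher, Wnt2, Wnt9b and Wnt11 lower), with a background of 43.3% (26.0% higher, 17.3% lower). In each of these comparisons 6 of the 10 did not overlap, as for 64.6% of all genes. Between Msc co-cultured and Msc alone none of the 10 differed by limma, and 2 had an unadjusted p under 0.05 in that fit: Wnt2 (-1.26 ± 0.39, adjusted p = 0.463) and Wnt5a (-0.84 ± 0.26, adjusted p = 0.473), both lower in co-culture without overlap. The background there was 0.127%, or 23 genes (0.0937% higher, 0.0331% lower), and 4 of the 10 ligands did not overlap, as for 34.0% of all genes.

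Across the transwell membrane, Wnt7a, Wnt7b and Wnt10a stood on the organoid side and Wnt4, Wnt5a, Wnt6, Wnt11 and Wnt2 were higher on the Msc side, with Wnt4, Wnt5a and Wnt5b above 1 TPM in every sample of both. Of the 10 ligands, 8 differed between Msc co-cultured and co-cultured organoids, with a background of 36.7%: Wnt2, Wnt4, Wnt5a, Wnt6 and Wnt11 were higher in Msc (17.7% of all genes) and Wnt7a, Wnt7b and Wnt10a lower (19.0%). The groups of 8 ligands did not overlap, as for 65.8% of all genes. Wnt7a was at least 994-fold and Wnt7b at least 4241-fold lower in Msc, and Wnt10a, at 0.128 and 0 TPM (2 reads and none), was lower by a log2 difference of -4.37 ± 0.52 (adjusted p = 0.000104). Wnt5a was higher in Msc by 3.02 ± 0.26 (adjusted p = 1.22e-05) and Wnt4 by 1.99 ± 0.32 (adjusted p = 0.00075). Wnt6 (1.92 ± 0.53, adjusted p = 0.0183), Wnt11 (1.63 ± 0.42, adjusted p = 0.0121) and Wnt2 (1.16 ± 0.39, adjusted p = 0.0399) were also higher in Msc. Each of these 3 calls ended without either co-cultured organoid library, and also without Msc co-cultured replicate 1 for Wnt6 and replicate 2 for Wnt11 and Wnt2, with adjusted p up to 0.117, 0.0622 and 0.267. The Wnt2 call ended as well without any DC day 0, EM organoid or Msc alone library (9 libraries in all, adjusted p from 0.0514), and with no filter, quantile normalization, only these groups or RPKM as deposited (adjusted p from 0.0502 to 0.154). With RPKM as deposited the Wnt11 call ended too (adjusted p = 0.0536).

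The change from day 0 to day 15 differed between co-cultured Msc and co-cultured organoids for 5 of the 10 ligands, with a background of 28.3% (interaction in the limma fit, with 14.5% above 0 and 13.8% below). The Msc also had the earlier expansion, so the lengths of culture differ between the arms. The difference, Msc change minus organoid change on the log2 scale, was -4.23 ± 0.42 for Wnt7a (adjusted p = 0.000131), -3.27 ± 0.55 for Wnt2 (adjusted p = 0.00217), -3.18 ± 0.49 for Wnt9b (adjusted p = 0.00135), -2.95 ± 0.71 for Wnt7b (adjusted p = 0.0134) and 1.52 ± 0.45 for Wnt4 (adjusted p = 0.0317). The larger change was in the organoids for Wnt7a and Wnt7b and in the Msc for Wnt2, Wnt9b and Wnt4, by the values given above. Wnt7a was at 0 in every Msc sample, so its difference is the organoid change alone. For the rest no change of the other arm was called. It was -0.93 ± 0.50 for Wnt7b in Msc. In organoids it was -0.74 ± 0.39 for Wnt2, -0.50 ± 0.34 for Wnt9b and 0.21 ± 0.32 for Wnt4. Wnt2 and Wnt9b began at means of 0.686 and 0.495 TPM in DC day 0, and Wnt7b at 0 and 2.65 TPM in Msc day 0. These arms had little room to fall. For Wnt2, Wnt7a, Wnt7b and Wnt9b the difference does not tell a differing response from expression mainly in a single cell type. With a pseudocount of 0.1 the differences of Wnt2 (adjusted p = 0.19), Wnt4 (adjusted p = 0.0893) and Wnt7b (adjusted p = 0.134) missed the threshold.

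The partners of the ligands were followed in lists of release factors (9 genes), receptors and co-receptors (18, of which 17 were tested) and beta-catenin target genes (12, of which 9 were tested in homeostasis and 11 in the transwell). Notum, which removes the lipid from Wnt proteins, is on both the first and the last list. In PDGFRa+SCA1+ against DC sorted, 4 release genes were higher and none lower, 8 receptors were higher and 2 lower, and 3 targets were higher and 1 lower, beside 9.85% of all genes higher and 14.0% lower. Wls was at 82.4 ± 5.88 units against 32.3 ± 9.49 (adjusted p = 0.00599). The co-receptor Adgra2, known from Wnt7 signalling in vessels of the brain, was at 105 ± 7.60 against 0.288 ± 0.253 (adjusted p = 8.41e-08). The receptor Fzd6 was at 0.245 ± 0.391 against 23.2 ± 5.86 (adjusted p = 2.56e-05). Among targets, the feedback inhibitors Nkd1 (6.31 ± 0.43 on the log2 scale, adjusted p = 6.13e-07) and Axin2 (13.1 ± 3.87 against 0.0197 ± 0.0174, adjusted p = 0.00079) were higher and Rnf43, which removes Frizzled receptors, was lower (0 against 5.64 ± 1.53, adjusted p = 0.0053). Counts were close in PDGFRa+SCA1- against DC sorted: 4 higher and 1 lower for release, 8 and 3 for receptors, and 3 and 1 for targets, beside 9.98% and 18.9% of all genes.

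In PDGFRa-SCA1+ against DC sorted, 1 release gene was higher and 1 lower, 5 receptors were higher and 3 lower, and 1 target was higher and 2 lower, beside 11.5% of all genes higher and 11.3% lower. Wls was at 88.3 ± 29.5 units (adjusted p = 0.00472), the endothelial receptor Fzd4 at 105 ± 19.9 against 11.6 ± 6.52 (adjusted p = 0.000124) and Nkd1 at 19.1 ± 9.15 (adjusted p = 5.27e-05). Against PDGFRa+SCA1+, it had 4 release genes lower and none higher, 2 receptors higher and 7 lower, and 1 target higher and 3 lower, beside 10.9% of all genes higher and 7.86% lower. Among these, the Wnt5a receptors Ror1 (1.06 ± 1.84 against 41.2 ± 6.60, adjusted p = 7.09e-05) and Ror2 (0 against 23.6 ± 8.20, adjusted p = 0.000298) were lower and Fzd6 was higher (70.6 ± 1.75 against 0.245 ± 0.391, adjusted p = 3.9e-06). Between the 2 mesenchymal fractions no gene of the 3 lists differed.

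In EM organoids against DC day 0, 5 release genes rose and 2 fell, 4 receptors rose and 4 fell, and 6 targets rose and 1 fell, beside 27.1% of all genes higher and 17.2% lower. Wls rose from 27.3 ± 0.428 to 106 ± 9.46 TPM (adjusted p = 1.99e-06), and of the targets Lgr5, the R-spondin receptor of stem cells, rose from 0.277 ± 0.0400 to 19.6 ± 9.65 TPM (adjusted p = 0.000256) and Axin2 from 0.116 ± 0.164 to 5.36 ± 1.27 TPM (adjusted p = 0.00205). In co-cultured organoids against DC day 0, 4 release genes rose and 2 fell, 3 receptors rose and 4 fell, and 1 target rose and 1 fell, beside 23.2% of all genes higher and 19.1% lower. Wls was at 99.6 ± 5.21 TPM (adjusted p = 3.00e-06) and Porcn at 80.0 ± 1.91 against 6.55 ± 4.45 (adjusted p = 6.46e-05). Between co-cultured and EM organoids 2 release genes were higher and 1 lower, 3 receptors were lower, and 3 targets were lower in co-culture and none higher, beside 5.73% of all genes higher and 7.21% lower. Among the targets was Lgr5, lower at 0.278 ± 0.393 TPM (adjusted p = 0.00122), while Porcn was higher (80.0 ± 1.91 against 28.8 ± 1.83, adjusted p = 0.0342). Medium and Msc cannot be told apart in this comparison.

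In Msc alone against day 0, 4 release genes rose and 2 fell, 5 receptors rose and 1 fell, and no target rose and 4 fell, beside 27.4% of all genes higher and 17.5% lower. In Msc co-cultured against day 0, 4 release genes rose and 3 fell, 4 receptors rose and 1 fell, and 3 targets fell, beside 26.0% of all genes higher and 17.3% lower. Wls rose from 62.9 ± 4.34 to 207 ± 10.8 TPM in Msc alone (adjusted p = 4.62e-06) and to 173 ± 5.74 in Msc co-cultured (adjusted p = 1.26e-05), and the Wnt5a co-receptor Ror1 from 34.3 ± 6.70 to 102 ± 10.4 (adjusted p = 0.000523) and 115 ± 7.29 TPM (adjusted p = 0.000292). Axin2 fell from 10.8 ± 4.13 to 3.66 ± 1.86 TPM (adjusted p = 0.0419) and 2.84 ± 1.75 TPM (adjusted p = 0.0186). No gene of these lists differed between Msc co-cultured and Msc alone. Against co-cultured organoids, Msc co-cultured had 4 release genes higher and 1 lower, 10 receptors higher and 2 lower, and 2 targets higher and 2 lower, beside 17.7% of all genes higher and 19.0% lower, with Ror1 at 115 ± 7.29 against 6.92 ± 0.628 TPM (adjusted p = 9.52e-07).

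Of the 9 Wnt ligand genes outside the 10, only Wnt2b and Wnt9a passed the filter on low values. Wnt2b was higher in PDGFRa+SCA1+ than in DC sorted (2.11 ± 0.0907 against 0.156 ± 0.148 units, adjusted p = 0.03) and lower in Msc alone (adjusted p = 0.0253) and Msc co-cultured (adjusted p = 0.0135) than in Msc day 0. Wnt9a was higher in Msc co-cultured than in co-cultured organoids (2.75 ± 0.55 on the log2 scale, adjusted p = 0.00314).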

How the data were processed

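Cells were sorted by flow cytometry, and Smart-seq2 libraries were sequenced as short single-end reads. The authors aligned them to GRCm38/mm10 with STAR 2.5.0a and counted them per gene with featureCounts (1.6.0 for the transwell in the submitters' processing notes), and Smart-seq2 libraries keep no strand. The authors deposited RPKM for the transwell, which were scaled here to the same total in each sample (TPM). They deposited values named TPM for the homeostasis samples. Those columns sum to 847270 to 1173511, and they fit values divided by the totals of other columns, by which a deposited value is 0.722 to 1.386 times the true TPM. The deposited values were used as they stand, and the reused totals were undone as an alternative. The 4 columns of the authors' means were not used. Depth was recovered from low values: 92.9% (homeostasis) and 93.1% (transwell) of low values lay within 0.02 of a whole number of reads.

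Groups came from the sample labels. Values were tested as log2(value + 1) with limma 3.58.1 (R 4.3.3), a mean per group and an intensity trend, over all 12 samples of an experiment, two-sided, with Benjamini-Hochberg adjustment over all genes at 1 or more in at least 3 (homeostasis) or 2 (transwell) samples. The study's methods name no test for these values. The fit was tested on simulated data. The 10 ligands, the gene lists and the tests were chosen with earlier results of these data known. All 10 ligands are described. Of other list genes, at most the 3 of lowest adjusted p per list and comparison are named, and for likeness the 3 genes of highest r, without predicted genes and Wnt ligands. Coding and upstream sequences came from GENCODE M21 and RefSeq.

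The 3 mice gave all 4 fractions, so the mouse letters pair the samples; the mean correlation of residuals was 0.037 within a mouse (0.004 to 0.097) and -0.019 between mice. The study describes the 2 transwell samples of a group as independent biological replicates, from 2 littermates for each cell type, and the p-values measure the spread between these samples. Alternatives were a pseudocount of 0.1, no filter or a minimum of 5, quantile normalization, the replicate block, only the groups compared, the deposited RPKM or undone totals, and leaving out each library.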

Additional observations from a re-analysis of the deposited data

Results flagged for a closer look

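The change from day 0 to the end of co-culture, which in Msc also covers an earlier expansion, differed between Msc and organoids for 5 ligands, tested as the interaction in the limma fit (Msc change minus organoid change, log2 scale). Wnt7a gave -4.23 (adjusted p = 0.000131): it rose in both organoid samples and was at 0 in all Msc samples. For Wnt7b the difference was -2.95 (adjusted p = 0.0134), and the call ended without DC day 0 replicate 2 (-2.78, adjusted p = 0.0603) or co-cultured organoid replicate 1 (-2.79, adjusted p = 0.06). Wnt2 gave -3.27 (adjusted p = 0.00217) and Wnt9b -3.18 (adjusted p = 0.00135), both high in Msc day 0 and low or at 0 in co-cultured Msc. Both were already low in DC day 0, as Wnt7b was in Msc day 0. For Wnt2, Wnt7a, Wnt7b and Wnt9b the calls thus do not tell a differing response to culture from expression mainly in a single cell type. For Wnt4 the difference was 1.52 (adjusted p = 0.0317), and the call ended without either DC day 0 library, co-cultured organoid replicate 1, Msc day 0 replicate 2 or Msc co-cultured replicate 2 (adjusted p from 0.0694 to 0.105). For Wnt5a the difference was -0.91 (adjusted p = 0.0987). It passed with a pseudocount of 0.1 (-1.54, adjusted p = 0.0275) and with quantile normalization (-1.28, adjusted p = 0.0301), and it was -1.17 without Msc day 0 replicate 2. Without Msc day 0 replicate 1, the difference was -2.36 for Wnt10a and -1.45 for Wnt11. Groups of 2 or 3 samples are too small for a search for single outlying samples.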

How the results depend on the processing

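Of 52 differences of ligands past the threshold, 33 stayed past it under every alternative run and 19 were lost under at least 1, 16 of them when a single library was left out; of 78 not past it, 22 passed under at least 1, and no called difference turned its sign. The number of ligands called moved by over 1.5 times as follows; the cause was not tested. With a minimum of 5, 2 were called in PDGFRa+SCA1+ against DC sorted. With quantile normalization, 5 were called in PDGFRa+SCA1- against DC sorted. With a pseudocount of 0.1, 1 was called in co-cultured against EM organoids and 3 in the interaction. With only the groups compared, 0 were called in co-cultured against EM organoids and 3 in Msc alone against day 0. Leaving out each library gave 3 to 5 ligands in PDGFRa+SCA1- against DC sorted, 4 to 7 between the SCA1+ fractions, 2 to 4 in EM organoids and 2 to 4 in co-cultured organoids against DC day 0, 0 to 3 in co-cultured against EM organoids, 5 to 8 between co-cultured Msc and organoids, and 3 to 7 in the interaction.

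Over all genes, 100 were called between the mesenchymal fractions and 54 with quantile normalization, 20 with the replicate block, 0 with only these groups and 31 to 394 without a library. Between co-cultured and EM organoids 2348 were called, 997 with only these groups and 1231 to 2967 without a library. Between Msc co-cultured and Msc alone 23 were called, 40 with a pseudocount of 0.1, 51 without a filter, 15 with a minimum of 5, 5 with the replicate block, 0 with only these groups and 0 to 28 without a library. With only the groups compared, 6662 genes were called in PDGFRa+SCA1+ against DC sorted, 4299 in Msc alone and 4035 in Msc co-cultured against day 0.

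The labels do not say whether a replicate number shared by transwell groups marks a mouse (same-number residuals correlated at 0.005 on average). With that replicate block, Wnt5b in co-cultured organoids against DC day 0 (adjusted p = 0.0586) and Wnt2 between co-cultured Msc and organoids (adjusted p = 0.0555) were lost, and in the homeostasis experiment the mouse block ended the call of Wnt6 given above and no other call of a ligand. The median of all genes was off 0 by over 0.1 on the log2 scale in 8 comparisons and the interaction, from -0.47 in PDGFRa+SCA1- against DC sorted to 0.25 between the SCA1+ fractions, and quantile normalization brought these 2 to -0.14 and 0.04. With 2 or 3 samples a group, a difference that missed the threshold is not shown to be absent.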
